A study of Mus musculus with 13 samples.

Results

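The interleukin-1 (IL-1) family and its receptors are represented here by 10 genes, taken from a fixed list of names among the 55353 genes counted in the files. They are the ligands Il1a, Il1b, Il18 and Il33, the inhibitors Il1rn, Il1r2 and Il18bp, and the receptor chains Il1r1, Il1rap and Il1rl1. Their transcripts were counted in 95563 liver cells from 13 droplet-based single-cell RNA-seq libraries, by cell type and by day of diet. Male C57BL/6J mice, 6 to 12 weeks old per the study's methods, received chow that contained DDC (diethoxycarbonyl dihydrocollidine) at 0.1%, a xenobiotic that inflames and remodels the small bile ducts. Livers were taken at steady state (D0, no DDC), at the onset of disease (D3 and D5) and during progression (D9, D19 and D25), and every day has 1 library by cell isolation protocol A and 1 by protocol B. A further library (STOP, protocol B) came from mice that had recovered for 7 days after DDC. The diet lasted 18 days per the treatment label, whereas the group label of STOP names day 19, and one label of the D19 library of protocol B also names day 18. Protocol A mixed, in equal parts, live single cells and sorted Cd45+, Lyve-1+, Pdpn+, Epcam+ and Cd31+ Lyve-1- fractions with vitamin A-autofluorescent (stellate) cells. Protocol B mixed live cells of a stellate cell (HSC) preparation with sorted Cd45+ Itgax+ Cd64-, Epcam+ and Cd3e+ Lyve-1- cells, and its Cd64- gate removes many macrophages. The sorts therefore set how many cells of a type a library holds, and the labels do not say which mice, or how many, went into each library.

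IL-1 alpha and IL-1 beta signal through the IL-1 receptor (Il1r1) together with the accessory protein (Il1rap), which recruits the adaptor Myd88 and activates NF-kB. IL-1 beta and IL-18 are made as inactive precursors that caspase-1 cleaves in inflammasomes, whereas IL-33 is a nuclear alarmin released from damaged cells. The family is held in check by a receptor antagonist (Il1rn), a decoy receptor (Il1r2) and a soluble IL-18 binding protein (Il18bp), and IL-33 acts through ST2 (Il1rl1), which also needs the accessory protein.

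The genes lie in a few groups on the mouse genome (GRCm38, GENCODE annotation). Il1r2 (chr1:40074079-40125231), Il1r1 (chr1:40225080-40317257) and Il1rl1 (chr1:40429570-40465415) follow each other on the plus strand of chromosome 1. Il1a (chr2:129299610-129309972) and Il1b (chr2:129364570-129371139) are neighbours on the minus strand of chromosome 2, which also carries Il1rn (chr2:24336853-24351494, plus strand). Il1rap lies at chr16:26581704-26730117, Il18 at chr9:50554827-50581840 and Il33 at chr19:29925114-29960718, all on the plus strand, and Il18bp at chr7:102014885-102018690 on the minus strand. The 250 bases before the start site (RefSeq, GRCm38.p6) are shown for Il1b and Il1r2, which had alike levels over cell types and libraries, and for Il1a, the neighbour of Il1b with a different order of cell types. The RefSeq start of Il1r2 lies inside the annotated locus given above, so that its window precedes an internal start and not the first base of the locus. Capitals mark the letters found in a search of both strands for the TATA box (TATAAA), AP-1 (TGANTCA), C/EBP (TTNCNNAA), PU.1 (GAGGAA) and NF-kB.

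Il1b, chr2:129371140-129371389, minus strand: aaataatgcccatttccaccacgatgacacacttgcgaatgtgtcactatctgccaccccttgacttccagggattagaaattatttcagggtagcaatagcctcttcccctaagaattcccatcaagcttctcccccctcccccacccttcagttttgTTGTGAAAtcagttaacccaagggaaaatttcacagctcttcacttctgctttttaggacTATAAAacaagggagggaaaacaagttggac
Il1r2, chr1:40085843-40086092, plus strand: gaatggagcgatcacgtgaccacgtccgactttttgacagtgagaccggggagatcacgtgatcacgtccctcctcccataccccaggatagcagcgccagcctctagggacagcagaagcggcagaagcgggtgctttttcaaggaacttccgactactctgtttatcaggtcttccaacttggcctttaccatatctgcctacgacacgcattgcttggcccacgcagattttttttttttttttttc
Il1a, chr2:129309973-129310222, minus strand: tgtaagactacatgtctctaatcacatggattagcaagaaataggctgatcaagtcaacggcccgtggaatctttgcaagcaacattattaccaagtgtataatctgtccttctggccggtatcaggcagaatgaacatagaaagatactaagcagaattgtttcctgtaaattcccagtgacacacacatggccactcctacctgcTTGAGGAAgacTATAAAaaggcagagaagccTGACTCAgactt

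The upstream sequence of Il1b held a TATA box that began 31 bases before the start site and C/EBP letters that began 91 bases before it. That of Il1a held a TATA box at 32 bases, AP-1 letters at 12 bases, and C/EBP and PU.1 letters that overlap at 43 and 41 bases, while none of these letters occurred in the Il1r2 window before the internal start. Among 32841 promoter windows of the same length, 12.4% held the TATA box letters, 6.75% those of AP-1, 36.9% those of C/EBP, 23.3% those of PU.1 and 3.90% those of NF-kB. The matches describe the letters and were not tested as binding sites.

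Levels are given as CPM, that is, the unique molecular identifiers (UMIs) of a gene as a share of all UMIs in the sum of the cells that a library holds of a type, on the usual CPM scale. Types differ in UMIs per cell, so that an order of types by CPM need not be the order of UMIs per cell. The libraries held 29307190 to 108602421 UMIs in all and 1541 to 14764 cells with at least 1500 UMIs, with a median of 3350 to 12013 UMIs per cell, and any pair shared at most 0.519% of its cell barcodes. The lowest medians were those of D0 A (3350) and D0 B (3512), against 3980 to 12013 in the other libraries. DDC against D0 is therefore also a comparison of deeper with shallower libraries, and the part of depth was not tested. Clusters were named from fixed marker lists and are called "-like". The 6 types compared were neutrophil-like (4262 cells), type 2 conventional dendritic cell (cDC2)-like (7344), macrophage-like (11939), biliary epithelial cell (BEC)-like (5834), liver sinusoidal endothelial cell (LSEC)-like (28323) and T-like cells (11745). A sum was used where it held at least 20 cells, so that neutrophil-like cells lack D3 B, and BEC-like cells lack D0 B, D3 A and D5 A. Median UMIs per cell in D0 A and D0 B were 2722 and 2168 in LSEC-like cells, against 3254 to 8253 under DDC. In macrophage-like cells they were 4937 and 4245 against 5656 to 19326. Free RNA was gauged in barcodes with 10 to 100 UMIs, taken as droplets without a cell. These barcodes held 39263 UMIs in D25 A and 112932 in D9 A, against 4194600 in STOP. Values of D25 A rest on very few UMIs, among them the highest for Il33 (25.5 CPM) and 0 for Il1a, Il1r2 and Il18. Means and ranges over libraries weigh all libraries alike, and how well these barcodes capture free RNA was not tested.

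**Figure D1:**
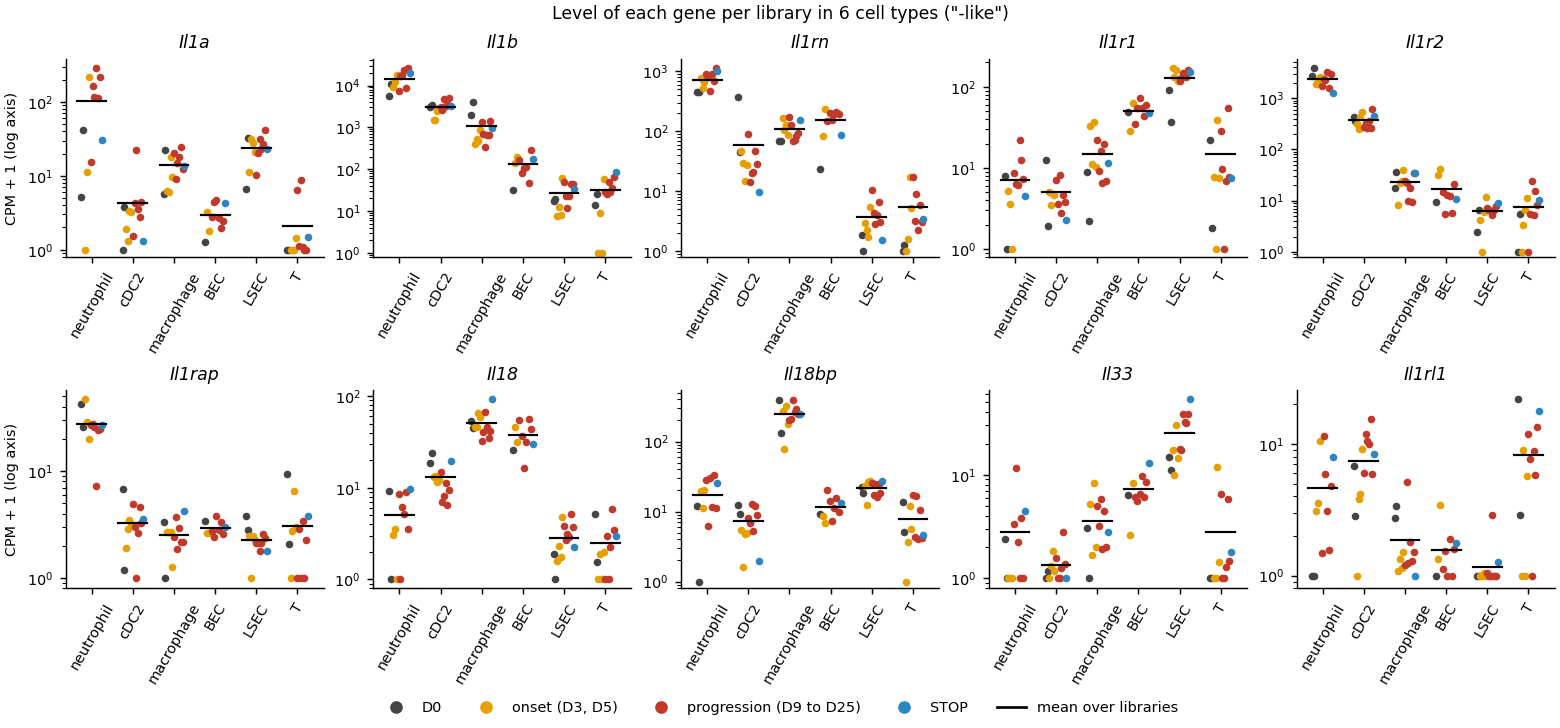
Level of each of the 10 genes in the 6 cell types (x axis), 1 point per library coloured by stage, as CPM + 1 on a log axis, with the mean over libraries as a black line. Il1b and Il1r2 fall from neutrophil-like over cDC2-like to macrophage-like cells, Il18bp is highest in macrophage-like cells, and Il1r1 and Il33 are highest in LSEC-like cells among the 6 types.

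Among the 6 types, Il1b, the main secreted IL-1 of myeloid cells, was highest in neutrophil-like cells, followed by cDC2-like and macrophage-like cells. Monocyte-like cells, outside the 6 types, held 2070 ± 749.7 CPM (n = 10), between cDC2-like and macrophage-like cells. Its level was 14629 ± 6502 CPM (SD, n = 12 libraries) in neutrophil-like cells, 3101 ± 1003 CPM (n = 13) in cDC2-like cells and 1102 ± 985 CPM (n = 13) in macrophage-like cells. Neutrophil-like cells exceeded cDC2-like cells in 12 of 12 libraries (log2 difference 2.09 ± 0.66 SD, adjusted p = 0.00305), and cDC2-like exceeded macrophage-like cells in 12 of 13 (1.78 ± 0.95, adjusted p = 0.00305). These and the following comparisons between neighbouring types used a two-sided exact sign-flip permutation test of log2(CPM + 1) over libraries, adjusted over 50 pairs, of which 20 passed 0.05. After thinning every cell to 1500 UMIs, Il1b was detected in 97.8% ± 1.85 of neutrophil-like, 65.3% ± 9.56 of cDC2-like and 40.0% ± 15.8 of macrophage-like cells, and in 98.5%, 76.9% and 61.0% before thinning. BEC-like (135 ± 78.0 CPM, n = 10), T-like (31.7 ± 25.7 CPM, n = 13) and LSEC-like cells (26.1 ± 17.3 CPM, n = 13) had less Il1b than the low-UMI barcodes, which held 311 to 1541 CPM. Thinned shares there were 7.94%, 3.38% and 4.18%, with median depths of 12735, 3964 and 4313 UMIs per cell against 2346 in neutrophil-like cells. Single cells held up to 360.0 Il1b UMIs in BEC-like, 135 in T-like and 61.0 in LSEC-like cells, and how much of these levels is free RNA was not tested. Shares of all UMIs in cells depend on the sorts and are given pooled over libraries. For Il1b, with 648030 UMIs, they were 28.5% for cDC2-like (2.22 to 61.6% over libraries), 23.4% for neutrophil-like (1.23 to 65.6%), 17% for unnamed and 14.5% for macrophage-like cells (4.42 to 46.3%), so that their order differed between libraries.

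Il1a, the membrane-bound and intracellular IL-1, had a different order. It reached 101 ± 99.9 CPM (n = 12) in neutrophil-like cells, 22.8 ± 10.2 CPM in LSEC-like cells and 13 ± 6.48 CPM in macrophage-like cells (n = 13 each), against 0 to 13 CPM in low-UMI barcodes. Neutrophil-like cells did not differ from LSEC-like cells beyond the spread (log2 difference 1.05 ± 2.11, adjusted p = 0.177, exact sign-flip test). LSEC-like cells had more Il1a than macrophage-like cells in 12 of 13 libraries (0.77 ± 0.82, adjusted p = 0.0154), and macrophage-like more than cDC2-like cells in 12 of 13 (2.12 ± 1.12, adjusted p = 0.00305). The neutrophil-like libraries were spread widely, from 0 of 481537 UMIs in D3 A, which allows up to 6.23 CPM, over a median of 77.1 CPM to 285 CPM in D19 B. Pooled over libraries, LSEC-like cells held 39.5% of all Il1a UMIs (12.9 to 74.7% over libraries) and macrophage-like cells 26.4% (12.3 to 51.7%). Counted per cell, the order of these types was the reverse, with 1818 UMIs in 11939 macrophage-like and 2718 in 28323 LSEC-like cells, which was not tested.

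Among the 6 types, Il18, the interferon-gamma-inducing member of the family, was highest in macrophage-like (50.4 ± 16.1 CPM, n = 13) and BEC-like cells (36.5 ± 12.8 CPM, n = 10). These 2 types did not differ beyond the spread (log2 difference 0.47 ± 0.93, adjusted p = 0.210, exact sign-flip test). BEC-like cells exceeded cDC2-like cells (12.1 ± 5.13 CPM) in 10 of 10 libraries (1.64 ± 0.82, adjusted p = 0.00651). The mean of low-UMI barcodes was 27.1 CPM, above the level of cDC2-like cells and the rest of the 6 types. Pooled over libraries, macrophage-like cells held 36.4% of all Il18 UMIs (4.29 to 86.5% over libraries) and BEC-like cells 22.6% (0 to 59.0%). The cDC1-like cells, outside the 6 types, held 17.6% (0.141 to 66.5%). Among the 6 types, Il33 was highest in LSEC-like cells (24.2 ± 13.2 CPM, n = 13), above BEC-like cells (6.29 ± 2.78 CPM, n = 10) in 10 of 10 libraries (1.80 ± 0.53, adjusted p = 0.00651). Hematopoietic types held 0.347 to 2.56 CPM of Il33, below the 10.3 CPM mean of low-UMI barcodes.

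Of the inhibitors, Il1rn, which encodes the antagonist that occupies the IL-1 receptor without signalling, was highest in neutrophil-like cells (732 ± 230.3 CPM, n = 12). BEC-like cells came next with 153 ± 68.7 CPM (n = 10), then macrophage-like cells with 107 ± 38.4 CPM and cDC2-like cells with 58.1 ± 96.9 CPM (n = 13 each). The cDC2-like mean was raised by D0 A (372 CPM), the median over libraries being 27.0 CPM, below the 42.0 CPM mean of low-UMI barcodes. Neutrophil-like cells exceeded BEC-like cells in 9 of 9 libraries (log2 difference 2.45 ± 0.95, adjusted p = 0.0122, exact sign-flip test). BEC-like and macrophage-like cells did not differ beyond the spread (0.41 ± 1.08, adjusted p = 0.350), and macrophage-like exceeded cDC2-like cells in 12 of 13 libraries (1.61 ± 1.54, adjusted p = 0.0122). Pooled over libraries, BEC-like, macrophage-like and neutrophil-like cells held 30.2%, 29.2% and 17% of all Il1rn UMIs, with wide ranges over libraries (0 to 58%, 10.9 to 69.8% and 0.581 to 33.6%). Counted per cell, BEC-like cells held more than neutrophil-like cells, with 13855 UMIs in 5834 cells against 7771 in 4262, which was not tested. Low-UMI barcodes held 19.5 to 88.5 CPM, above every T-like and LSEC-like value.

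Among the 6 types, Il1r2, the decoy receptor that binds IL-1 without signalling, followed the order of Il1b from neutrophil-like to macrophage-like cells with a sharper edge. It reached 2408 ± 743 CPM (n = 12) in neutrophil-like cells and 374 ± 114 CPM (n = 13) in cDC2-like cells, but 22.1 ± 10.7 CPM in macrophage-like cells. Neutrophil-like exceeded cDC2-like cells in 12 of 12 libraries (log2 difference 2.63 ± 0.51, adjusted p = 0.00305) and cDC2-like exceeded macrophage-like cells in 13 of 13 (4.13 ± 0.59, adjusted p = 0.00305, exact sign-flip test). After thinning, 85.1% ± 6.87 of neutrophil-like and 32.9% ± 6.83 of cDC2-like cells had the transcript, against 2.30% ± 1.17 of macrophage-like cells. Macrophage-like, BEC-like, T-like and LSEC-like cells lay below the 72.3 CPM mean of low-UMI barcodes. Among the 6 types only neutrophil-like and cDC2-like cells exceeded that background on average. Il1b did so on average in macrophage-like cells as well, where the D0 libraries were the highest and 4 DDC libraries lay below their own low-UMI barcodes (461 against 702 CPM in D5 A, 876 against 949 CPM in D5 B, 339 against 501 CPM in D19 A and 669 against 1008 CPM in D19 B).

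Il18bp, the soluble inhibitor of IL-18, was highest in macrophage-like cells. They held 248 ± 93.0 CPM (n = 13) and 78.0% of all its UMIs (40.2 to 89.5% over libraries), and exceeded LSEC-like cells (20.8 ± 4.78 CPM) in 13 of 13 libraries (log2 difference 3.43 ± 0.52, adjusted p = 0.00305, exact sign-flip test). The other 5 of the 6 types had 6.29 to 20.8 CPM on average, below the 77.4 CPM mean of low-UMI barcodes. BEC-like cells, which did not differ from macrophage-like cells in Il18 beyond the spread, held 10.7 ± 4.24 CPM of Il18bp.

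Il1r1, the signalling receptor for IL-1 alpha and beta, was, among the 6 types, highest in LSEC-like and then BEC-like cells. LSEC-like cells held 129 ± 35.3 CPM (n = 13) and BEC-like cells 49.9 ± 13.2 CPM (n = 10), with LSEC-like cells higher in 10 of 10 libraries (log2 difference 1.40 ± 0.43, adjusted p = 0.00651). BEC-like cells exceeded T-like cells (14.0 ± 16.4 CPM) in 9 of 10 (2.63 ± 1.95, adjusted p = 0.0154), T-like and macrophage-like cells (13.9 ± 10.3 CPM) did not differ beyond the spread (-0.56 ± 1.66, adjusted p = 0.352), and macrophage-like exceeded neutrophil-like cells (6.15 ± 5.65 CPM) in 10 of 12 (1.18 ± 1.47, adjusted p = 0.0452, exact sign-flip test). Low-UMI barcodes held 5.14 to 177 CPM with a mean of 40.0 CPM, above the means of the 4 hematopoietic types. LSEC-like cells carried 53.2% of all Il1r1 UMIs (9.97 to 77.3% over libraries), and 15.3% ± 3.93 of them had the transcript after thinning, against 7.18% ± 1.82 of BEC-like cells.

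Il1rap, the accessory chain shared by the IL-1 and IL-33 receptors, was, among the 6 types, highest in neutrophil-like cells, with 26.3 ± 9.88 CPM (n = 12) against 2.27 ± 1.56 CPM (n = 13) in cDC2-like cells (higher in 12 of 12 libraries, log2 difference 3.12 ± 0.99, adjusted p = 0.00305, exact sign-flip test). The other 5 types held 1.29 to 2.27 CPM on average, and none of their 4 neighbour pairs differed beyond the spread. Il1rl1, the IL-33 receptor ST2, was at the edge of detection, with 7.33 ± 6.59 CPM in T-like and 6.39 ± 4.04 CPM in cDC2-like cells (n = 13 each), which did not differ beyond the spread (-0.16 ± 1.48, adjusted p = 0.764). These levels lay above the 0 to 6.21 CPM of low-UMI barcodes on average, and only 0.880% and 0.986% of the cells had a UMI after thinning.

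DDC libraries were compared with D0 libraries within each type by edgeR's quasi-likelihood test on the summed counts, with protocol as a term and the mean of onset and progression set against steady state. Values below are log2 fold changes with SE and p-values adjusted by Benjamini-Hochberg over all genes tested in the type. Of the 10 genes, 10 were tested in macrophage-like and BEC-like cells, 9 in cDC2-like and LSEC-like cells and 6 in neutrophil-like and T-like cells, the rest being too low. In macrophage-like cells 2 members passed, 1 higher and 1 lower (3 with DESeq2), where 6.72% of all 12328 genes tested did. In cDC2-like cells 1 of 9 passed, lower, against 1.45% of all genes, and in LSEC-like cells 1 of 9, higher, against 0.340%. None passed in neutrophil-like, BEC-like and T-like cells, where 0.182%, 0.617% and 0.661% of all genes did. In neutrophil-like and T-like cells the edgeR counts at an unadjusted p under 0.05 were 2 and 1, and DESeq2 called 0 in each. Shares over all genes are not given for unadjusted or DESeq2 counts, so these counts are not read as results about the members. The median log2 fold change of the members tested was 0.03 in macrophage-like, -0.24 in cDC2-like, 1.02 in LSEC-like, 0.68 in neutrophil-like, 1.18 in BEC-like and 0.51 in T-like cells, with medians of -0.01 to 0.05 over all genes.

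**Figure D2:**
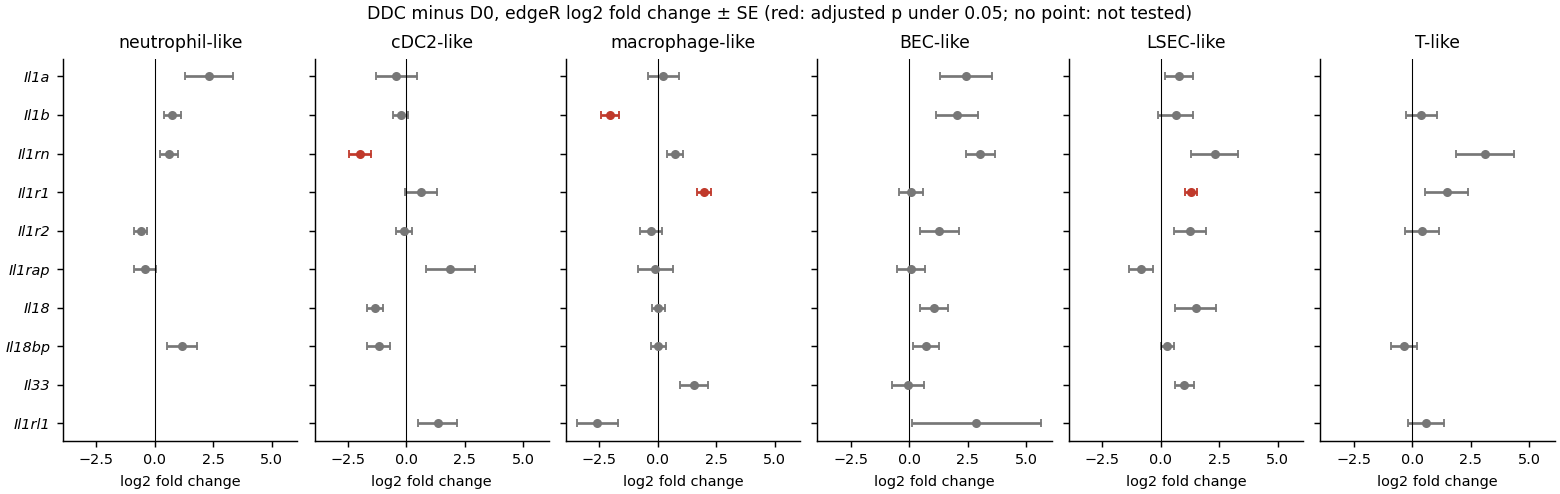
Log2 fold change (x axis, DDC minus D0, edgeR) with SE of each gene (y axis) in each of the 6 cell types, red where the adjusted p is under 0.05 and no point where a gene was not tested. Il1b and Il1r1 in macrophage-like, Il1rn in cDC2-like and Il1r1 in LSEC-like cells are red, and Il1rn in BEC-like cells has a point at 3.03 ± 0.62 that missed the threshold.

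Il1b fell in macrophage-like cells. Its level was 1964 CPM in D0 A and 3983 CPM in D0 B, against 339 CPM at the lowest, 671 CPM at the median and 1445 CPM at the highest of 10 DDC libraries. All DDC libraries lay below both D0 libraries, with a log2 fold change of -2.03 ± 0.38 (edgeR, adjusted p = 0.00651), -1.52 within protocol A (adjusted p = 0.161) and -2.49 within protocol B. Low-UMI barcodes held 333 CPM of Il1b in D0 A, 1541 CPM in D0 B and 311 to 1008 CPM under DDC. In macrophage-like cells, 7 of 13 neutrophil markers (97.8 to 265 CPM in sum at D0 against 63.6 to 432 CPM under DDC) had a higher mean under DDC. So had 4 of 9 cDC2 (763 to 812 against 500.0 to 901 CPM) and 6 of 8 monocyte markers (207 to 334 against 282 to 767 CPM). The part of free RNA and of these types was not tested. Macrophage-like cells of D0 and DDC came from different clusters. Cluster 58, led by Ms4a7, Mmp13 and Ccl12, made up 27.1% of macrophage-like cells at D0 and 0.0366% under DDC, and held 3948 CPM of Il1b in D0 A and 5156 CPM in D0 B. The D0 libraries differed in it, with 78 of 567 macrophage-like cells in D0 A and 126 of 185 in D0 B. Cluster 2, led by Gpnmb, Ms4a7 and Trem2, made up 10.5% and 55.7%, and cluster 12, led by the Kupffer cell genes Clec4f, Timd4 and Marco, 48.4% and 16.7%. Within cluster 2, Il1b was 1957 and 1453 CPM at D0 against 384 to 1541 CPM under DDC, and within cluster 12 it was 1768 and 1618 CPM against 272 to 1539 CPM. Without cluster 58, an alternative chosen after seeing the data, the log2 fold change of Il1b was -1.03 (edgeR, adjusted p = 0.115). Without D0 B it was -1.45 and no longer called either (adjusted p = 0.129).

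Il1r1 rose in macrophage-like cells from 7.92 and 1.19 CPM in D0 A and D0 B to between 5.47 and 35.4 CPM under DDC (median 12.6). The D0 B sum held 838386 UMIs in 185 cells, where 0 UMIs of a gene allow up to 3.58 CPM. Its 1.19 CPM therefore rests on very few UMIs. The log2 fold change was 1.96 ± 0.30 (edgeR, adjusted p = 0.00220), with 8 of 10 DDC libraries above both D0 libraries. It was 1.90 in protocol A and 2.48 in protocol B, where the D0 B sum alone stood for steady state. Markers of LSEC moved with it, as 10 of 11 LSEC markers had a higher mean under DDC in macrophage-like cells, none was at 0, and their summed level was 1336 to 2862 CPM at D0 and 1207 to 6615 CPM under DDC. Markers of BEC, another type with Il1r1, also moved with it, with 9 of 11 higher, none at 0 and a summed level of 23.9 to 76.3 CPM at D0 and 422 to 6562 CPM under DDC, without overlap. For vascular endothelium, also rich in Il1r1, 6 of 9 were higher (139.6 to 470.5 against 319.9 to 1193 CPM). Of the stellate cell or fibroblast markers, 2 of 11 were higher (34.6 to 211 against 45.4 to 144 CPM). Low-UMI barcodes held 41.9 and 5.74 CPM of Il1r1 at D0 and 5.14 to 177 CPM under DDC. Of the clusters, 18 and 23 carried the transcript with 55.0 and 57.4 CPM over all cells, while cluster 2 held 2.46 CPM, and 39.6% of cluster 23 were called as doublets. Cluster 23 made up 1.86% of macrophage-like cells at D0 and 13.3% under DDC, and cluster 18 made up 12.1% and 14.3%. Without clusters 18 and 23, an alternative chosen after seeing the data, the log2 fold change was 1.33 (edgeR, adjusted p = 0.0979). With doublet calls removed it was 1.71 (adjusted p = 0.0936). Without D0 A it was 2.58 and no longer called, and there too the few UMIs of D0 B alone stood for steady state. The part of the marker-bearing RNA, free RNA and doublets in the rest of the difference was not tested.

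Il1r1 rose in LSEC-like cells, the highest of the 6 types for it. D0 A held 90.1 CPM and D0 B 36.3 CPM, and the 10 DDC libraries held 116 CPM at the lowest, 136 CPM at the median and 169 CPM at the highest, all above both D0 libraries. The log2 fold change was 1.31 ± 0.25 (edgeR, adjusted p = 0.0446), 0.98 in protocol A (adjusted p = 0.146) and 1.80 in protocol B (0.0498). Low-UMI barcodes held less Il1r1 than the LSEC-like sum of their library except in D3 A (177 against 169 CPM). The LSEC markers themselves were 22365 to 29696 CPM in sum at D0 and 13782 to 23623 CPM under DDC, with 3 of 11 higher. Of other types' markers in LSEC-like cells, 0 of 10 hepatocyte (172 to 1333 against 184 to 508 CPM), 10 of 12 macrophage (107 to 331 against 136 to 624 CPM) and 9 of 11 BEC markers (7.26 to 96.9 against 7.67 to 205 CPM) had a higher mean under DDC, none was at 0, and their part in the result was not tested. Markers of the Il1r1-rich vascular endothelium were 3436 to 5200 CPM at D0 and 2574 to 5096 CPM under DDC, with 5 of 9 higher. Cluster 13 made up 58.4% of LSEC-like cells at D0 and 0.338% under DDC, with 77.4 CPM over all its cells. It held 2107 of the 3149 LSEC-like cells of D0 A but 5 of the 469 of D0 B, so that it describes D0 A and not D0 B. In cluster 1, which held cells of all libraries, Il1r1 was 76.8 CPM in D0 A and 34.2 CPM in D0 B (6 UMIs) against 111 to 172 CPM under DDC. In cluster 6, led by the central vein genes Wnt9b and Rspo3, it was 268 CPM in D0 A and 47.6 CPM in D0 B (4 UMIs) against 161 to 299.8 CPM, so that D0 A lay inside the DDC range there. Without clusters 5 and 13, chosen after seeing the data, the log2 fold change was 1.03 (edgeR, adjusted p = 0.162), and the call held only without D0 A, D9 A or D25 B among the 12 libraries left out in turn, with log2 fold changes of 0.98 (without D0 B, adjusted p = 0.105) to 1.85 (without D0 A).

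Il1rn fell in cDC2-like cells and was higher in BEC-like cells under DDC. In cDC2-like cells it was 372 CPM in D0 A and 43.5 CPM in D0 B, and 13.4 CPM at the lowest, 26.6 CPM at the median and 90.3 CPM at the highest of 10 DDC libraries. The log2 fold change was -1.99 ± 0.48 (edgeR, adjusted p = 0.0468), -2.84 in protocol A (adjusted p = 0.0596) and -1.23 in protocol B (0.0702), and 7 of 10 DDC libraries lay below both D0 libraries. The D0 A sum held 26 cells and 64 Il1rn UMIs. In cDC2-like cells, 1 of 10 hepatocyte (269 to 529.6 CPM at D0 against 82.4 to 254 CPM under DDC) and 0 of 8 B markers (233 to 242 against 70.6 to 179.7 CPM) had a higher mean under DDC. So had 6 of 13 neutrophil (98.9 to 128 against 30.7 to 382 CPM) and 9 of 12 macrophage markers (797 to 1145 against 625 to 2696 CPM). The part of these types in the result was not tested. Low-UMI barcodes held 23.3 and 26.8 CPM of Il1rn in D0 A and D0 B and 20.8 to 88.5 CPM under DDC, so that both D0 sums lay above and 8 of 10 DDC sums below the barcodes of their own library. In D0 B, 672 of 1038 cDC2-like cells fell into cluster 40, which held 5.29 CPM of Il1rn over all its cells. Within cluster 4, Il1rn was 420.3 CPM in D0 A and 128 CPM in D0 B against 15.1 to 94.1 CPM under DDC, and this cluster alone, chosen after seeing the data, gave -2.67 (adjusted p = 0.00274). The call was lost without D0 A (-1.29, adjusted p = 0.176), D0 B (-2.70, 0.194), D3 A, D9 B, D19 A, D19 B or D25 A (-2.05 to -1.90 for these 5), and with doublet calls removed (-1.99, 0.0513).

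In BEC-like cells, Il1rn was 22.4 CPM in D0 A, the only D0 library with enough of these cells, against 81.9 to 235 CPM under DDC (median 194, n = 8). All 8 DDC libraries lay above it, with a log2 fold change of 3.03 ± 0.62 (edgeR) that missed the threshold. Only D9 A, D19 A and D25 A share the protocol of D0 A, and the onset libraries used, D3 B and D5 B, are of protocol B. The contrast therefore rests in part on the protocol term. With 1 library at D0, the SE takes its spread from the other groups, and whether another D0 library would be as low was not tested. BEC-like cells of D0 and DDC came from different clusters. Cluster 28 made up 86.6% of them at D0 and 7.38% under DDC, cluster 16 1.39% and 34.6%, and cluster 21 9.57% and 32.9%. As given below, cluster 16 held more Il1rn than cluster 21, and within cluster 21 D0 A lay inside the DDC range. Il1b in BEC-like cells was 30.7 CPM in D0 A and 46.2 to 293 CPM under DDC (2.06 ± 0.90, edgeR, not called). Markers of some Il1b-bearing types moved with it, as 12 of 12 macrophage and 8 of 9 cDC2 markers had a higher mean under DDC in BEC-like cells, with none at 0. Neutrophil markers did not, with 5 of 13 higher and 286 CPM in sum at D0 against 17.6 to 658 CPM under DDC. Of the monocyte markers 7 of 8 had a higher mean, but their sum was 423 CPM at D0 against 209 to 357 CPM. Summed levels were 141 CPM at D0 and 192 to 1029 CPM under DDC for macrophage markers, and 88.1 CPM against 34.0 to 239 CPM for cDC2 markers. The part of these other types in the result was not tested.

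Of the other members, several had a fold change that did not pass the test, most with overlapping ranges. In neutrophil-like cells, Il1a was 4.12 and 41.2 CPM at D0 and 0 to 285 CPM under DDC (2.31 ± 1.02, edgeR adjusted p = 0.326), with log2 fold changes of 1.22 without D5 B to 3.05 without D0 B and 0.83 at 3000 UMIs per cell. Il1r2 there was 2759 and 3829 CPM against 1593 to 3299 CPM (-0.61 ± 0.28, adjusted p = 0.334). Il1b of neutrophil-like cells was 5781 and 11093 CPM at D0 and 7332 to 25857 CPM under DDC, the protocol B libraries being higher than the A libraries of the same day on all 4 DDC days with both. In cDC2-like cells, Il18 was 17.5 and 22.8 CPM at D0 and 5.43 to 13.8 CPM in all 10 DDC libraries (-1.32 ± 0.34, adjusted p = 0.0563, DESeq2 0.0227). The size rested on D0 B, as the log2 fold change of Il18 was -0.38 in protocol A, -1.55 in protocol B and -0.34 without D0 B (edgeR adjusted p = 0.878). The cDC2-like cells of D0 and DDC lay in different clusters, with cluster 40 making up 63.2% of them at D0 and 0.924% under DDC. All 672 D0 cells of cluster 40 came from D0 B. Il33 in LSEC-like cells was 14.0 and 9.99 CPM at D0 and 9.01 to 37.9 CPM under DDC (1.02 ± 0.40, edgeR adjusted p = 0.329). Il1b in cDC2-like cells was 3137 and 3393 CPM at D0, inside the 1472 to 4940 CPM of DDC libraries.

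**Figure D3:**
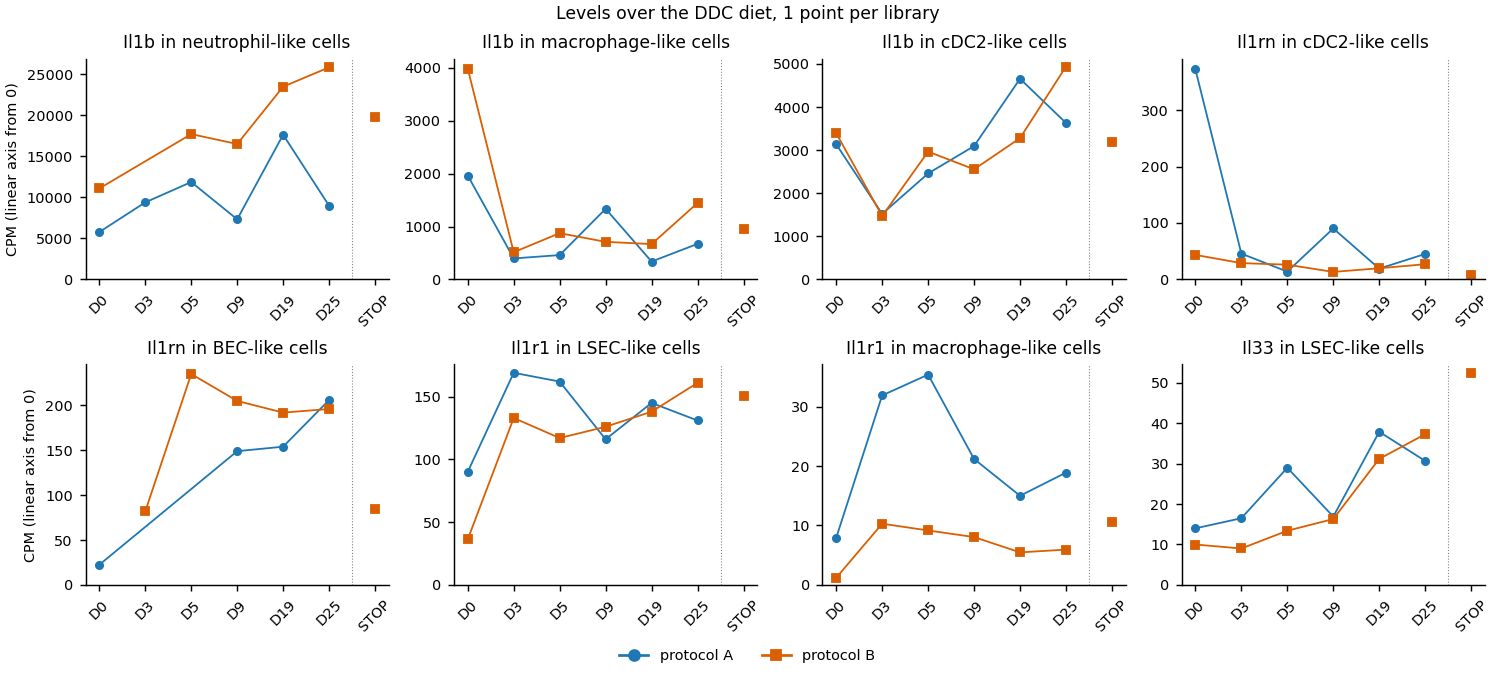
CPM (linear axes from 0) of Il1b, Il1rn, Il1r1 and Il33 in the cell types named, by day of DDC diet (x axis) and isolation protocol (A blue circles, B orange squares), 1 point per library, with STOP at the right and lines skipping days without enough cells. Il1b drops in macrophage-like cells after D0 in both protocols, Il1r1 is higher in LSEC-like cells from D3 on, and Il33 in LSEC-like cells is highest at STOP.

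Progression was set against onset in the same fits, and no member passed in any of the 6 types. Of all genes tested, 0.454% passed in macrophage-like and 0.0387% in LSEC-like cells, and 0 passed, or 0%, in each of the other 4 types. At an unadjusted p under 0.05, edgeR gave 1 member in neutrophil-like, 2 in cDC2-like, 2 in macrophage-like, 1 in BEC-like, 1 in LSEC-like and 0 in T-like cells, and DESeq2 called 1, Il1r1 in macrophage-like cells. These counts too are given without shares over all genes. Il1b of cDC2-like cells was 1472 to 2967 CPM in the 4 onset libraries and 2556 to 4940 CPM in the 6 progression libraries, a log2 fold change of 0.77 ± 0.28 (edgeR, adjusted p = 0.611). Both D3 libraries were the lowest of the series for it, with 1522 and 1472 CPM. Il33 of LSEC-like cells was 9.01 to 29.0 CPM at onset and 16.3 to 37.9 CPM at progression (0.71 ± 0.29, adjusted p = 0.600). Il1r1 of macrophage-like cells was 9.16 to 35.4 CPM at onset and 5.47 to 21.2 CPM at progression (-0.72 ± 0.16, adjusted p = 0.0623, DESeq2 0.0148).

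Within a type, some clusters held far more of a transcript than others, which is a description since the clusters were drawn from the same cells. Among T-like cells, Il1r1 stood out in cluster 51, which carried 8 of 9 markers of gamma delta T17 cells and was led by Cd163l1, Il17a and Blk. It held 122 to 222 CPM of Il1r1 in the 5 libraries with at least 20 of its cells, and 40.3% of its 350 cells had a UMI, while the other T-like clusters held at most 7.90 CPM in any library. These values overlap the 36.3 to 169 CPM of LSEC-like cells. Among T-like clusters, Il1rl1 was highest in cluster 9, led by Cd40lg and Il4, with 38.4 CPM over its 2908 cells. Of the neutrophil-like cells, cluster 20, led by Siglecf, held 175 CPM of Il1a over all cells and cluster 10, led by Retnlg, 33.3 CPM, and Il1b was 17711 and 11158 CPM. Cluster 20 was nearly absent at D0, with 16 cells.

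**Figure D4:**
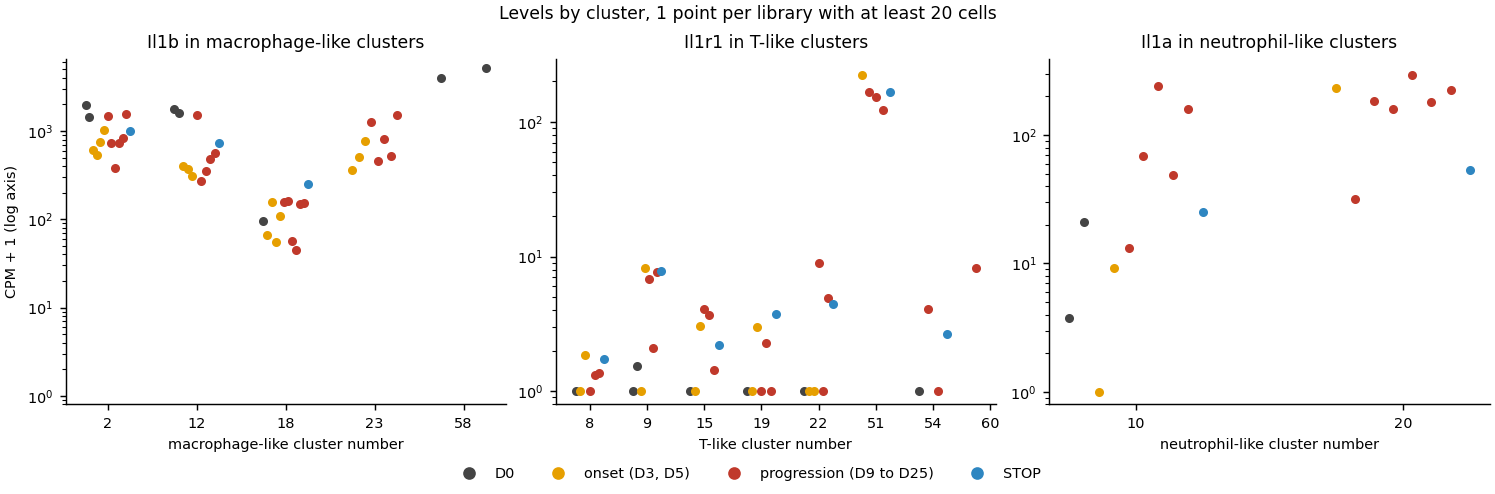
Level of Il1b in macrophage-like, Il1r1 in T-like and Il1a in neutrophil-like cells by cluster (x axis), 1 point per library with at least 20 cells of the cluster, coloured by stage, as CPM + 1 on a log axis. Cluster 58 has points of D0 only, and cluster 51 lies between 122 and 222 CPM of Il1r1.

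Among macrophage-like cells, cluster 12 held 646 CPM of Il18bp and 109 CPM of Il18 over all cells, and cluster 2 165 and 27.2 CPM. Cluster 18, which shares Clec4f, Timd4, Marco and Vsig4 among its leading genes with cluster 12 but has a lower depth, held 43.6 to 250.4 CPM of Il1b, below every value of clusters 2 and 12. Among BEC-like cells, Il1rn was 323 CPM in cluster 16, led by Cxcl5, and 59.4 CPM in cluster 21, led by Dmbt1 and Spink4, whereas Il18 had the reverse order with 18.7 and 82.1 CPM. Cluster 16 held 223 to 385 CPM of Il1rn in its DDC libraries and 131 CPM at STOP, and cluster 21 held 29.8 to 83.5 CPM under DDC and 73.7 CPM in D0 A. Among LSEC-like cells, cluster 6 was highest for both Il1r1 (252 CPM) and Il33 (46.2 CPM).

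The STOP library was set against D19 B, the protocol B library closest in diet. With 1 library each there is no test, and the 95% exact Poisson intervals cover counting error only. Of 60 values, 10 genes in 6 types, 18 had separate intervals. The share of all genes with separate intervals was not computed, so this count is not read as a result about the members. In neutrophil-like cells, Il1a was 29.6 CPM at STOP (17.3 to 47.5) against 285 CPM (239 to 337), and Il1r2 was 1284 CPM (1192 to 1380) against 3299 CPM (3138 to 3466), the lowest Il1r2 of all neutrophil-like libraries. The neutrophil-like cells lay in different clusters, 23 in cluster 10 and 141 in cluster 20 for D19 B and 197 and 51 for STOP. Within cluster 20, Il1a was 52.4 CPM at STOP (6 UMIs) against 293 CPM and Il1r2 1205 against 3484 CPM, and within cluster 10, Il1a was 24.0 CPM (11 UMIs) against 242 CPM (19 UMIs) and Il1r2 1303 against 2358 CPM. Il1b of neutrophil-like cells was 19863 CPM (19500 to 20231) at STOP against 23497 CPM (23064 to 23936), also with separate intervals. In macrophage-like cells, Il18 was 90.9 CPM (80.1 to 103) at STOP against 44.9 CPM (40.6 to 49.6), above the atlas range of 31.4 to 65.5 CPM. The cluster mix differed here too, with 166 cells in cluster 2, 35 in cluster 12 and 47 in cluster 18 at STOP against 578, 66 and 41 in D19 B. Il18 was 36.9 against 26.9 CPM within cluster 2, 238 against 139 CPM within cluster 12 and 216 against 147 CPM (27 UMIs) within cluster 18. Il33 of LSEC-like cells was 52.4 CPM (45.4 to 60.1) against 31.2 CPM (24.9 to 38.7), also above all atlas libraries. It was higher at STOP within LSEC-like clusters 1, 3, 5 (1 UMI in D19 B) and 6, and lower within cluster 14 (23.8 CPM with 6 UMIs against 40.5 CPM). Il1rn was lower at STOP in cDC2-like (8.75 against 19.9 CPM) and BEC-like cells (84.4 against 192 CPM) and higher in macrophage-like cells (152 against 71.1 CPM), where cluster 18 had the opposite order (115 against 185 CPM). BEC-like cells also lay in different clusters, with 127 cells in cluster 16 and 182 in cluster 28 at STOP against 253 and 36 in D19 B. Il1rn was 131 against 287 CPM within cluster 16, and 73.7 against 41.7 CPM (20 UMIs) within cluster 28, so that the direction was not shared by the clusters. Il1r1 of LSEC-like cells was 150.4 CPM at STOP and 138 CPM in D19 B, with overlapping intervals.

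**Figure D5:**
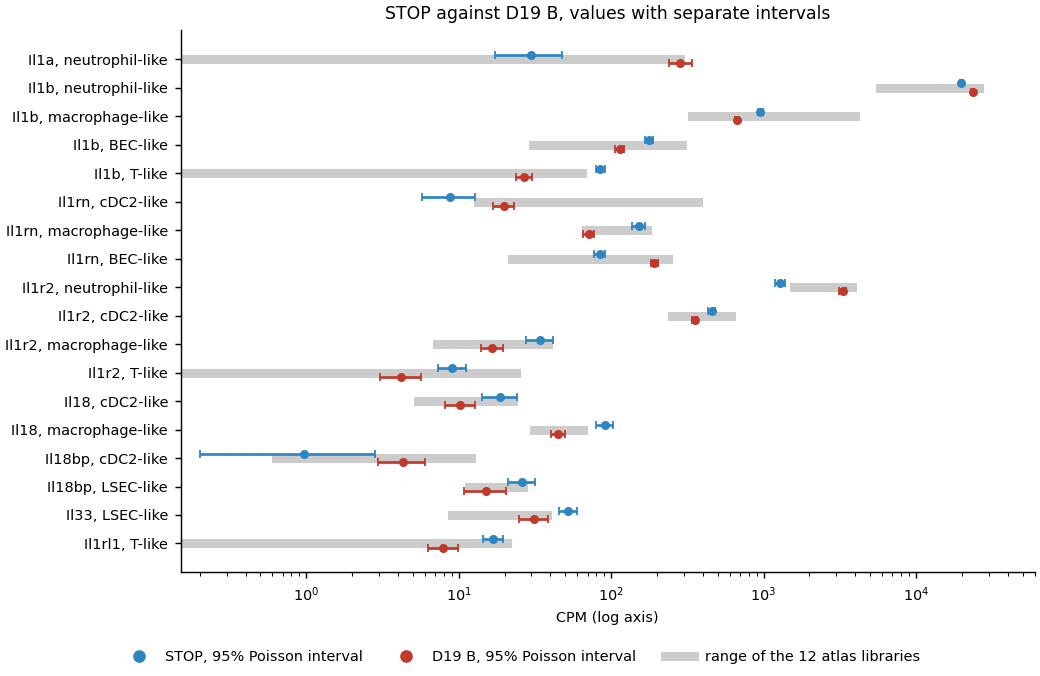
CPM (log axis) of the 18 gene and cell type values with separate 95% Poisson intervals between STOP (blue) and D19 B (red), with the range of the 12 atlas libraries in grey. STOP lies outside the grey range for Il1r2 in neutrophil-like, Il18 in macrophage-like, Il33 in LSEC-like, Il1rn in cDC2-like and Il1b in T-like cells.

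Other genes of the pathway were taken from a list of 36, of which 32 were in the files, with 21 to 27 tested in a type. For DDC against D0, 3 of 25 passed in macrophage-like cells, all lower, where 6.72% of all genes did, and 2 of 27 in BEC-like cells, 1 higher and 1 lower, where 0.617% did. None passed in the other 4 types (edgeR). At an unadjusted p under 0.05 (edgeR) the counts were 7 in macrophage-like, 2 in neutrophil-like, 4 in cDC2-like, 4 in BEC-like, 3 in LSEC-like and 0 in T-like cells. The shares of all genes at that unadjusted p are not given, so these counts have no background. In macrophage-like cells, Irak3, an inhibitor of IL-1 receptor signalling, was 16.7 and 54.9 CPM at D0 and 12.5 to 20.6 CPM under DDC (-1.04 ± 0.22, adjusted p = 0.0127). Aim2, a DNA-sensing inflammasome receptor, was 57.3 and 74.8 CPM against 28.3 to 49.6 CPM (-0.76 ± 0.16, adjusted p = 0.0138), without overlap. Peli1, a ubiquitin ligase of the IL-1 and Toll-like receptor pathways, was 62.0 and 355 CPM against 68.4 to 113 CPM (-1.02 ± 0.27, adjusted p = 0.0336), so that 1 D0 library lay below the DDC range. In BEC-like cells D0 A alone stood for steady state, and the test assumes that it varies like the libraries of the other groups. Gsdmd, the pore-forming protein through which IL-1 beta leaves cells, was 5.14 CPM against 14.7 to 36.2 CPM (2.53 ± 0.41, adjusted p = 0.0424), and Peli1 was 173 CPM against 46.0 to 73.3 CPM (-1.55 ± 0.23, adjusted p = 0.0358). No listed gene passed for progression against onset in any of the 6 types.

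The genes with the most alike pattern were sought by Pearson correlation of log2(CPM + 1) over 174 sums of a named type in a library, which share libraries and depth, among 7917 or 7918 genes. Il1b was most like Nlrp3, an inflammasome sensor (r = 0.92), followed by Lrrc25 and Il1r2 (0.86 each). Il1r2 was most like Il1b (0.86), Nlrp3 (0.84) and Ptafr (0.83), and Il1rn most like Cd14 (0.84), Slc7a11 (0.83) and Cxcl2 (0.82). Il1r1 was most like Osmr and Ptprg (0.88 each), Il33 most like the matrix genes Fbn1 (0.89) and Bgn (0.87), and Il18bp most like the Kupffer cell gene Cd5l (0.78) and the iron exporter Slc40a1 (0.76). The remaining 4 genes had weaker likenesses, with a highest r of 0.77 for Il18 (Shtn1), 0.67 for Il1a (Kcnj2), 0.64 for Il1rap (Rab44) and 0.57 for Il1rl1 (Cd101).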

How the data were processed

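Single-cell RNA-seq was done on 13 libraries of mouse liver (12 of the DDC time course and 1 STOP library), made with 10x 3′ v3.1 reagents, single index for protocol A and dual index for B. The deposited values are raw UMI counts, unfiltered for cells and not normalized by the authors, so that the depth is known. The submitters' processing notes name kallisto and GRCm38, while versions and annotation were not given in the sources used here.

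Cells were taken as barcodes of 1500 UMIs or more. They were clustered (scanpy 1.11.5, igraph 0.11.9, Python 3.11.15; 2000 variable genes, 40 components, 25 neighbours, Leiden resolution 1.5) into 65 clusters, of which 51 were named from marker lists (a marker in at least 10% of cells and 2-fold above the rest, at least 3 markers) and 14, with 6352 cells (6.65%), stayed unnamed. Doublets were kept in the main values, and Scrublet calls were removed in an alternative, with its automatic threshold in 3 libraries and the expected rate in 10. Counts were summed per library and type where at least 20 cells were present, and CPM was computed from the sums. Groups came from the library titles. edgeR 4.0.16 (R 4.3.3, quasi-likelihood, genes filtered by edgeR's default rule, protocol as a term, STOP left out) with Benjamini-Hochberg adjustment at 0.05 was the main test and DESeq2 1.42.0 an alternative. On simulated data with 200 genes changed by 2 on the log2 scale (DDC against D0), edgeR recovered 20% of them in BEC-like cells (15392 genes) and 64.5% (neutrophil-like, 6038 genes) to 76% (T-like, 10586 genes) in the other types. False calls were 3.97% (macrophage-like, 12328 genes) to 9.52% (T-like) of all calls, and 8.5% in cDC2-like cells (11271 genes). Levels between types were compared by exact sign-flip tests, and shares of cells after thinning to 1500 UMIs. Intervals and floors (3 counts) cover counting error only. The labels do not say which mice are in which library, so p-values measure the spread between libraries, which may be technical.

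The named genes are the 10 members and any gene of the pathway list that passed. The members and lists were chosen with earlier results of these data known, and the rule for naming clusters was revised after the clusters were seen. Loci came from the GENCODE M21 annotation (GRCm38) and promoter sequences from RefSeq (GRCm38.p6), with entries for all 10 genes.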

Additional observations from a re-analysis of the deposited data

Results flagged for a closer look

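Of 46 groups of 4 or more libraries with a mean of at least 10 CPM that were examined for a library far from the others, 4 held one, where chance gives about 5%. Il1b was 60.3 CPM in LSEC-like and 57.9 CPM in T-like cells of D5 B, each far above the other 3 onset libraries. Il1r2 of cDC2-like cells was 613 CPM in D25 B, far above the other 5 progression libraries. Il1rap of neutrophil-like cells was 6.29 CPM in D19 B (3 UMIs in 164 cells, 95% exact Poisson interval 1.30 to 18.4 CPM), far below the other 5 progression libraries.

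Il1b and Il1rn lay on opposite sides of D0 in different types when each DDC library was set against the D0 library of its own protocol. All DDC libraries of a protocol share 1 D0 library, only the falls of Il1b in macrophage-like and of Il1rn in cDC2-like cells had passed edgeR's test, and these differences between types were not tested. Il1b was higher in all 9 neutrophil-like libraries (median log2 difference 0.70) and in all 3 BEC-like libraries that could be compared (1.73), and lower in all 10 macrophage-like libraries (-2.24). Il1rn was higher in all 9 neutrophil-like (0.77) and 3 BEC-like libraries (2.73), and lower in all 10 cDC2-like libraries (-1.83).

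Il1rl1 was higher in 2 unnamed clusters than the mean of any named type. It was 12.6 CPM in cluster 41, in which 70.3% of cells were called as doublets. It was 106 CPM (58 UMIs in 117 cells) in cluster 62, which was led by Cyp11a1, Mcpt8 and Cpa3, carried all 6 basophil or mast cell markers and 7 of 13 neutrophil markers, and had 41.0% doublet calls.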

How the results depend on the processing

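The number of members called changed with the settings as follows. The shares of all genes called under these settings are not given, so the counts have no background. With no filter on low counts, DDC against D0 gave 1 in neutrophil-like (Il1a), 2 in cDC2-like (Il18, Il1rn), 2 in BEC-like (Il1b, Il1rn) and 2 in LSEC-like cells (Il1r1, Il1rn), and progression against onset gave 1 in neutrophil-like (Il1a), 3 in macrophage-like (Il1a, Il1b, Il1r1) and 1 in BEC-like cells (Il1r2). DESeq2 called 2 in cDC2-like (Il18, Il1rn), 3 in macrophage-like (Il1b, Il1r1, Il1rl1), 1 in BEC-like (Il1rn) and, for progression, 1 in macrophage-like cells (Il1r1). With doublet calls removed the counts were 0 in cDC2-like and 1 in macrophage-like cells (Il1b), and with at least 3000 UMIs per cell 0 in LSEC-like cells. Of the settings chosen after seeing the data, leaving out clusters 18 and 23 gave 1 in macrophage-like (Il1b), leaving out cluster 58 gave 2 (Il1r1, Il33), and leaving out clusters 5 and 13 gave 0 in LSEC-like cells. Leaving out 1 library at a time gave 0 to 2 in cDC2-like, 1 to 3 in macrophage-like, 0 to 1 in BEC-like and 0 to 1 in LSEC-like cells, and 0 to 1 in macrophage-like cells for progression. The causes were not tested.

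For progression, Il1a of neutrophil-like cells was 1.55 in the fit of both protocols and -0.03 in protocol B alone. The log2 differences between neighbouring types turned for Il1b (T-like minus LSEC-like, 0.07 with a pseudocount of 10), Il1rn (T-like minus LSEC-like, -0.11 without doublet calls, -0.05 to 0.36 over libraries left out), Il1r2 (T-like minus LSEC-like, 0.06 with a pseudocount of 10 and 0.06 at 3000 UMIs, -0.29 to 0.12), Il1rap (macrophage-like minus LSEC-like, -0.02 at 3000 UMIs), Il18bp (T-like minus cDC2-like, 0.03, 0.02 and 0.01 with a pseudocount of 10, at 3000 UMIs and without doublet calls, -0.12 to 0.19), Il33 (neutrophil-like minus T-like, -0.00 with a pseudocount of 10 and -0.18 at 3000 UMIs, -0.26 to 0.39), Il1rl1 (T-like minus cDC2-like, 0.03 with a pseudocount of 10, -0.32 to 0.11), Il1a (cDC2-like minus BEC-like, -0.19 to 0.26) and Il1r1 (neutrophil-like minus cDC2-like, -0.02 to 0.45). None of these pairs had passed its test. The highest type of Il1rl1 became cDC2-like cells at 3000 UMIs, without doublet calls and without D0 A.

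DDC and D0 libraries could not be paired by replicate because the labels give no replicate numbers, only a protocol letter, which is already a term of the fits. The comparisons between neighbouring types were paired within libraries. Steady state rests on 2 libraries, and on 1 in BEC-like cells, and genes of a few CPM rest on few UMIs per sum. In bulk sums of a type, a change in the mix of clusters and a change within cells cannot be told apart.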

Other observations

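Several types outside the 6 compared held members at high levels. Il1r1 was 196 ± 41.8 CPM (SD, n = 11 libraries) in vascular endothelium-like and 146 ± 50.3 CPM (n = 9) in stellate cell or fibroblast-like cells, against 129 ± 35.3 CPM (n = 13) in LSEC-like cells. Il33 was 88.1 ± 40.2 CPM in stellate cell or fibroblast-like, 87.2 ± 19.8 CPM in vascular endothelium-like and 75.5 ± 41.9 CPM (n = 6) in mesothelium-like cells, all above the 24.2 ± 13.2 CPM of LSEC-like cells. Mesothelium-like cells also had the highest Il18 of any named type, 114 ± 47.5 CPM. Pooled over libraries, LSEC-like cells held 35.3% of all Il33 UMIs (5.68 to 58.8% over libraries), stellate cell or fibroblast-like cells 25.6% (0.543 to 73.7%) and vascular endothelium-like cells 13.4% (1.24 to 27.3%), so that the order was not the same in every library.

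Among the other myeloid cells, Il1b was 2070 ± 749.7 CPM (n = 10) in monocyte-like, 764 ± 319 CPM (n = 9) in mature DC-like and 747 ± 420.4 CPM (n = 13) in cDC1-like cells. Monocyte-like cells held 107 ± 62.6 CPM of Il1rn and 118 ± 66.1 CPM of Il1r2. These levels were not tested between types.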
